A study of Mus musculus with 6 samples.

Results

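The mouse embryonic stem cell (mES) aggregate is the pool of all aligned reads that the authors placed under barcodes of mES cells. It was taken whole from its deposited list of alignments, with identical second records dropped. It held 726631 alignment records of 612194 reads, out of 1183107 records of 999553 reads in the mES and fibroblast aggregates together. The cells were of the line V6.5, grown in Knockout DMEM with fetal bovine serum, leukemia inhibitory factor (LIF) and BME. The fibroblasts (mEF) came from embryos at day 10.5 post coitum, were bought as a stock, and were grown in the same base with serum, for which neither LIF nor BME is listed. No genetic change or drug is listed for either cell type. Cells were lysed in drops and their polyadenylated RNA was labeled with a barcode for each drop (Hi-SCL), and 6 libraries were sequenced from the 3′ side of the transcripts. All 6 libraries are labeled as holding both cell types, so there is 1 pool per cell type, no labeled replicate and no test between cell types. The study's text speaks both of known cell types and of clusters of expression, and does not say outright which of these the deposited pools follow. If by clustering, genes that differ between the pools helped to make them, so every difference is given as a description. The records carry no barcode, so drops with more than 1 cell and barcodes shared by cells could not be looked for, and how the authors treated them in the pools is not given in the sources used here. A larger share of cells with a transcript and more of it per cell cannot be told apart in a pool.

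Mouse embryonic stem cells are pluripotent cells taken from the inner cell mass. Transcription factors such as Pou5f1, Sox2 and Nanog hold this state together with Klf family factors, while LIF acts through STAT3 to keep the cells from differentiating in serum. They divide rapidly and keep much of their chromatin open. Polycomb proteins with the cofactor Jarid2 silence developmental genes.

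The depth was 11.4 reads per distinct position in the mES aggregate, where a position is a chromosome, a strand and the 5′ end of a read. Because PCR copies share a position, positions were counted in place of reads. The read names show 3 sequencing runs. Runs 1 and 2, with mostly 35-nt alignments, are called library set 1, and run 3, with 45-nt alignments, library set 2. Set 1 held 537009 mES reads on 41140 positions and set 2 held 75185 mES reads on 14024 positions. Whether the sets hold different cells is not given in the sources used here. The sets stood apart: a region of 2.5 kb on chromosome 17 took 1.84% of mES reads in set 1 and 35.4% in set 2, and the mitochondrial chromosome took 1.93% and 9.82%. The fibroblast aggregate showed the same order, with 0.653% and 29.6% at the chromosome 17 region. Both were therefore left out of the nuclear totals and the sets are given apart.

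The files use the mouse build mm9 and no mm9 gene annotation was used here. Genes were instead named from the reads that cross introns. An alignment with a gap shows the length of the intron that it spans, and that length, with the order of introns along the chromosome, picks out a gene of GENCODE M21. Of 3332 distinct gapped alignments, 3323 had the length of an annotated intron on the same chromosome and strand. Only 524 of them had a length that 1 intron alone bears there. The others could be placed only by their order between named neighbors. In all, 2986 alignments were assigned to an intron. They named 1082 genes, 1071 of them protein-coding, and 728 genes rest on 1 gapped alignment. Exons of these genes held 37.7% of the nuclear mES reads and 25.9% of the nuclear mES positions. A gene without such an alignment has no value here. Of the 1082 genes, 222 were named through gapped alignments of both aggregates, 655 through those of mES only and 205 through those of mEF only. A gene named through 1 aggregate only was bound to be detected there and tends to be higher there, so its detection is no finding and its ratio is given as a description. Of the 8 markers given for the aggregate, 5 could not be named and were not analysed here: Pou5f1, Sox2, Nanog, Zfp42 and Dnmt3l. That left Dppa5a, Tdh and Jarid2 to set against the label. All 3 were named through mES only, so their detection does not check it.

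The exon junctions that named the 3 markers, the Krüppel-like factor Klf5, the corepressor Trim28, the ubiquitin ligase Mkrn1 and, for contrast, the fibroblast gene Col1a1 are shown because each name depends on the junction. Each line gives 30 bases of the spliced transcript from GENCODE M21, 5′ to 3′, with the last 15 bases of the upstream exon in lower case and the first 15 bases of the downstream exon in capitals. All 7 junctions lie in coding sequence.
Jarid2: taccgctacgatgagGAGCAGATCATCAGT
Dppa5a: tgcgccagcaaaaagGAGTGCTGAAGCTGG
Tdh: tccgacaggccatagCGGAGAGCTGGCCCA
Klf5: tctgcgattataatgGTTGCACAAAAGTTT
Trim28: tctacattctccatgGAGCAGCCTGGTGGT
Mkrn1: tcaagcagataccggGCCCAACGAAGGAGC
Col1a1: gtggacggctgcacgAGTCACACCGGAACT

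In mm9, the Jarid2 junction joined exons 18 and 19 of 19, and its alignment ran over chr13:45011869-45015178 on the plus strand across a gap of 3275 nt. The Dppa5a junction joined exons 2 and 3 of 3 over chr9:78215099-78215569 on the minus strand, with a gap of 426 nt. The Tdh junction joined exons 8 and 9 of 9 over chr14:64111662-64112591 on the minus strand, with a gap of 895 nt. The Klf5 junction joined exons 2 and 3 of 4 over chr14:99701443-99702640 on the plus strand, with a gap of 1163 nt. In 3 of the 4 genes the last exon was reached, where an assay of transcript ends is read. The Trim28 alignment lay at chr7:13615703-13615816 (plus), the Mkrn1 alignment at chr6:39349430-39349827 (minus) and the Col1a1 alignment at chr11:94812625-94812788 (plus).

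Levels are given as positions per 10000 positions on the named genes. A 95% interval, exact Poisson for a level and exact binomial for a ratio, covers counting error only. Levels are not divided by transcript length, since reads come mostly from 3′ ends. Reads at the same position cannot be told apart from PCR copies, so read counts are given beside positions for the leading genes. The larger pool can also fill more positions of an abundant transcript.

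All 3 markers that could be named were named through mES alignments and through no mEF alignment, so their presence in mES was fixed by the naming. Jarid2, the Polycomb cofactor, had 28 mES positions in set 1 and 2 in set 2, and 0 mEF positions in either set. Its 30 positions came from 428 reads, a level of 22.0 (14.8 to 31.3). With 3 counts taken in place of 0, which is a level of 4.17 in mEF, the Jarid2 ratio was 5.26 by positions. The exact interval of the ratio starts at 4.02. Dppa5a, a small RNA-binding protein of pluripotent cells, had 60 and 8 mES positions in sets 1 and 2, and 8 and 0 mEF positions. Its mES level was 49.8 against 11.1 in mEF, a ratio of 4.47 (2.15 to 10.8), and its reads were 1010 against 178. Only 42.7% of the mES reads at Dppa5a had the highest mapping score, so most of them also align elsewhere in the genome. With reads of the highest score alone, its mES level was 29.3. Tdh, the threonine dehydrogenase on which mouse stem cells depend for one-carbon units, had 5 and 0 mES positions against 1 and 0 in mEF. Its 77 mES and 9 mEF reads had the same order, but with 6 positions in all the ratio of 2.63 had an interval from 0.294 to 124. Tdh was not compared further. In each named marker, set 1 of mES was above both sets of mEF.

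The positions of the markers lay near transcript ends. Of the 30 Jarid2 positions, 22 were within 500 nt of an annotated 3′ end, with a median distance of 419 nt. For Dppa5a 57 of 68 and for Tdh 5 of 5 positions were within 500 nt.

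**Figure D1:**
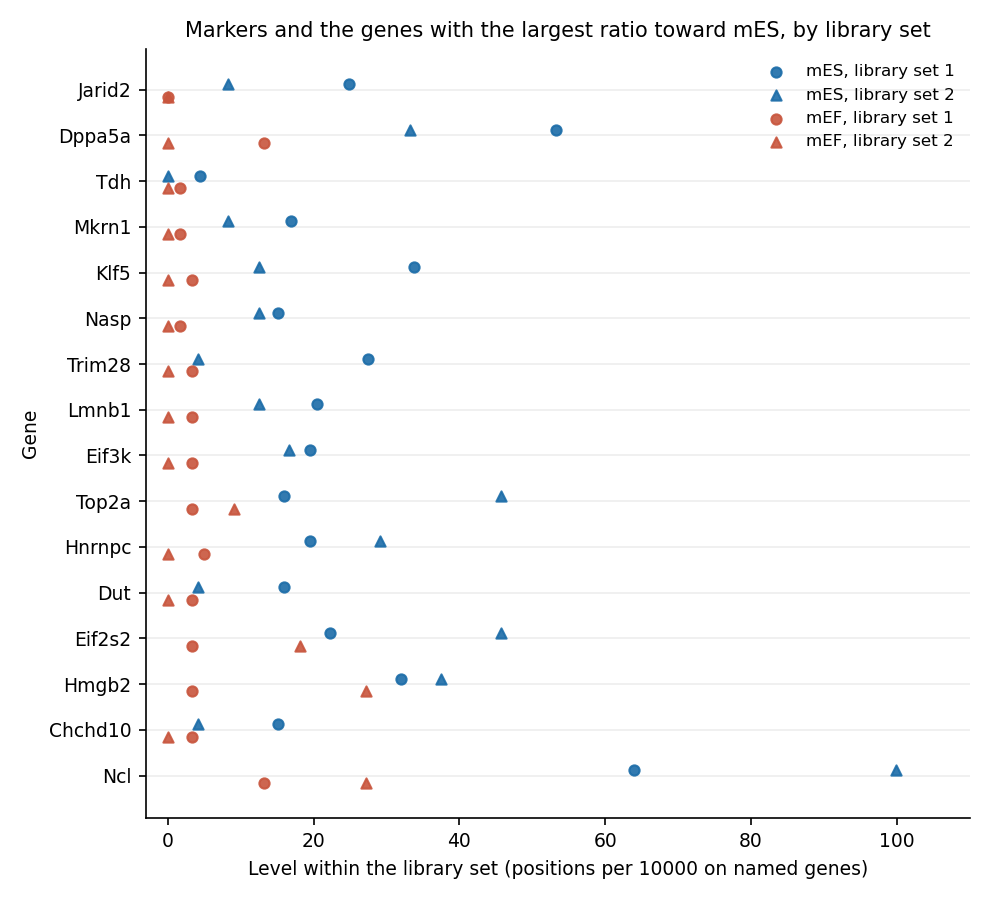
Levels within each library set (x axis, positions per 10000 positions on the named genes) of the 3 markers that could be named and of 14 of the 15 genes with the largest ratio toward mES (y axis, Jarid2 is in both groups). Blue points stand for mES and red for mEF, circles for set 1 and triangles for set 2. The 15 were taken among genes with mES above mEF in set 1 and not below it in set 2. Their order within the sets was thus fixed by the choice. For Dppa5a and Tdh, mES also lies above mEF in set 1, and in set 2 the Tdh values are both 0.

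Among regulators of naive pluripotency, 2 of 21 annotated list members could be named, Klf5 and Rif1, both through mES only. Klf5, a zinc finger factor that supports self-renewal, had 38 and 3 mES positions in sets 1 and 2 against 2 and 0 in mEF. By reads this was 645 against 10. Its mES level, with an interval from 21.5 to 40.7, was 10.8-fold (2.80 to 92.0) that in mEF, and 31 of its 41 mES positions were within 500 nt of a 3′ end. Rif1, a telomere and replication timing factor, had 9 mES positions in each set against 0 and 1 in mEF. The ratio of its levels was 9.47 (1.50 to 395). With 19 positions over both aggregates, Rif1 fell just below the minimum of 20 used for the comparison. In both genes the mES levels lay above the mEF levels in each set.

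Of 24 annotated members of a list of stem cell enriched factors, 5 could be named, all through mES only, so their detection and sum are not read as a result. Dppa5a and Tdh are 2 of the 5. Mkrn1, a ring finger ubiquitin ligase, had 19 and 2 mES positions against 1 and 0. This gave a ratio of 11.05 (1.78 to 457). Epcam, a cell adhesion molecule of epithelia and stem cells, had 8 and 1 against 1 and 0. Rbpj, the DNA-binding partner of Notch, had 15 and 4 against 4 and 0. The ratio of Rbpj was 2.50, with an interval from 0.830 to 10.1 that includes 1.

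Of 26 regulators of chromatin and DNA methylation 7 could be named, Jarid2 among them, again all through mES only. Hmgb2, a DNA-bending protein of proliferating cells, had 36 and 9 mES positions in sets 1 and 2 against 2 and 3 in mEF. Its ratio was 4.73 (1.89 to 15.3). The maintenance methyltransferase Dnmt1 had 7 and 2 mES positions and 0 in mEF, from 152 and 0 reads. Hells, a chromatin remodeler needed for DNA methylation, had 3 and 5 against 0 and 1. The remodeler subunit Smarcc1 had 8 and 0 mES against 5 and 0 mEF positions at a ratio of 0.842 (0.243 to 3.27).

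The widest comparison took all named genes with at least 20 positions over both aggregates. Of 249 such genes, 46 (18.5%) had a mES level more than 2 times the mEF level and 40 (16.1%) the reverse, with a median log2 ratio of 0.10. The naming weighed on these shares. Of the 156 compared genes named through both aggregates, 16 (10.3%) were past the limit toward mES and 19 (12.2%) toward mEF, with a median log2 ratio of -0.02. Of the 69 named through mES only, 28 were past it toward mES and 6 toward mEF, and of the 24 named through mEF only, 2 and 15. Loci made from 5′ ends on the same strand at most 500 nt apart need no gene names, and were scaled to all nuclear positions. Over 448 such loci, 74 (16.5%) were higher in mES and 83 (18.5%) in mEF. On that same scale the 249 named genes gave 38 (15.3%) and 43 (17.3%), so the 2 sets of shares are near each other. Of the 46 genes, 39 were also higher in mES within each set. This is no independent repeat, since the call was made on both sets summed. Set 1 held 11264 of the 13668 mES positions on named genes. In set 2 some of the 39, such as Trim28 and Dut, had 1 mES position against 0. Among the rest of the 46, the order turned in set 2 for Rpl7l1, Ppp4c, Eif4a1, Hnrnpa1 and Snrpg, and Eif3d had no set 2 position in either aggregate. Just inside the 2-fold limit was Snrpg at 2.02, and just outside were U2af1 at 2.00 and Atp5j2 at 1.89. Of the 46, 1 gene, Jarid2, had no mEF position.

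**Figure D2:**
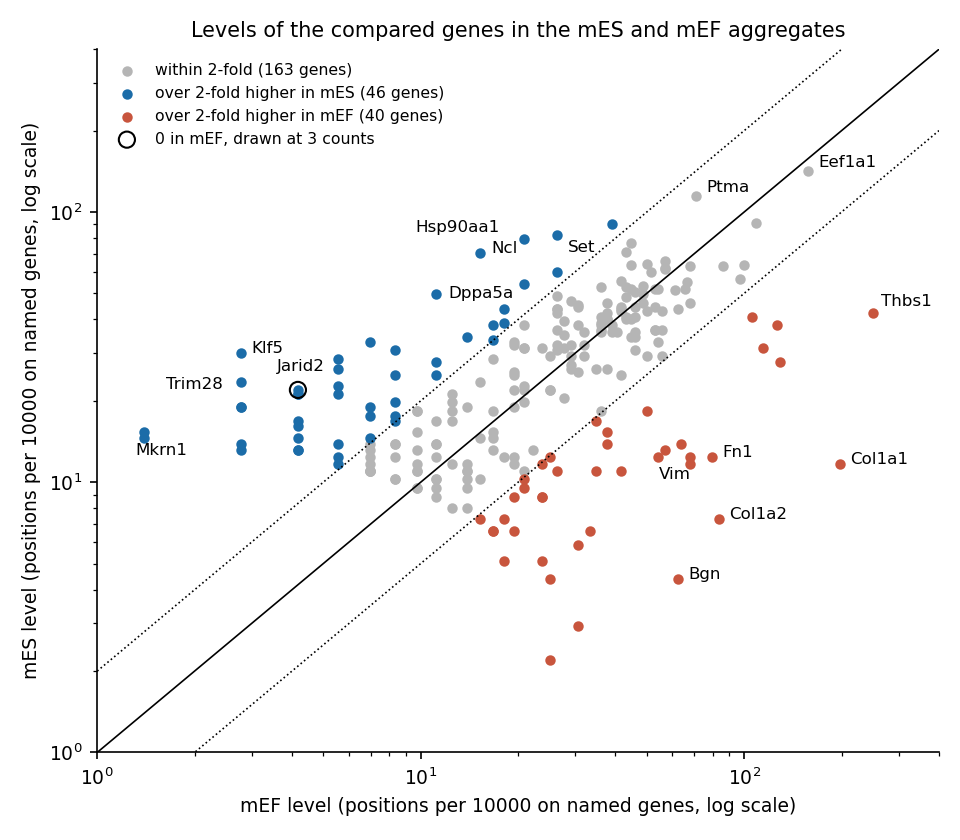
Level in mES (y axis) against level in mEF (x axis) of the 249 compared genes, in positions per 10000 positions on the named genes, both axes on a log scale. The solid line marks equal levels and the dotted lines 2-fold differences; 46 blue genes lie above the upper dotted line, 40 red genes below the lower, and the circled point is Jarid2, drawn at 3 counts in mEF.

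Among the 15 genes with the largest ratios toward mES, Ncl and Eif2s2 were named through both aggregates, Trim28 through mEF only and the rest through mES only. The 15 were taken among genes with mES above mEF in set 1 and not below it in set 2. Their order within the sets is therefore no finding. Trim28, which silences endogenous retroviruses in stem cells, had 31 and 1 mES positions in sets 1 and 2 against 2 and 0 in mEF. Its ratio was 8.42 (2.15 to 72.5), from 593 and 40 reads, and all 32 mES positions lay within 500 nt of a 3′ end. Nasp, a histone H1 and H3 chaperone, had 17 and 3 against 1 and 0, a ratio of 10.5 (1.68 to 436). Lmnb1, a B-type lamin, had 23 and 3 against 2 and 0, a ratio of 6.84 (1.71 to 59.5). In contrast, Lmna, the A-type lamin that is low in undifferentiated cells, had 10 and 0 mES positions against 9 and 4 in mEF. Lmna was 2.47-fold higher in mEF, from few positions and with no interval given. Dut, which keeps uracil out of DNA, had 18 and 1 against 2 and 0, a ratio of 5.00 (1.21 to 44.2). Trim28, Nasp, Lmnb1 and Dut had few mEF positions, and their intervals reach down to between 1.21 and 2.15.

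Some of these genes encode RNA-binding proteins. Hnrnpc, which binds nascent transcripts, had 22 and 7 against 3 and 0, a ratio of 5.09 (1.58 to 26.1). Ncl, the nucleolar protein nucleolin, was the most abundant of the 15, with 72 and 24 against 8 and 3. Its mES level of 70.2 (56.9 to 85.8) was 4.59-fold (2.45 to 9.50) that in mEF, and in reads it had 1337 against 135. The levels of Ncl in the mES sets, 63.9 and 99.8, did not overlap those in the mEF sets. Outside the 15, the splicing factor Srsf3 had 29 mES positions against 4, and Syncrip 23 against 3.

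Of 7 compared Eif translation factor genes, 4 were past the limit toward mES and 1 toward mEF, against 18.5% and 16.1% of all compared genes. Eif3k and Eif2s2, subunits of initiation complexes, had ratios of 6.84 (1.71 to 59.5) and 4.73 (1.70 to 18.3). Eif2s2 had 25 and 11 mES positions against 2 and 2. Eif4a1, the helicase of the cap-binding complex, had 111 and 12 against 21 and 7, a ratio of 2.31 (1.52 to 3.62). By reads Eif4a1 had 3711 against 499, but within set 2 its levels were 49.9 in mES and 63.3 in mEF. The 1 toward mEF was Eif4g1, the scaffold of the same complex, with 9 mES against 12 mEF positions, 2.53-fold higher in mEF. It was named through 1 aggregate only. Its positions are few and no interval is given for it, so its side is not read as a result. The mitochondrial protein Chchd10, also among the 15 genes with the largest ratios, had 17 and 1 against 2 and 0.

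**Figure D3:**
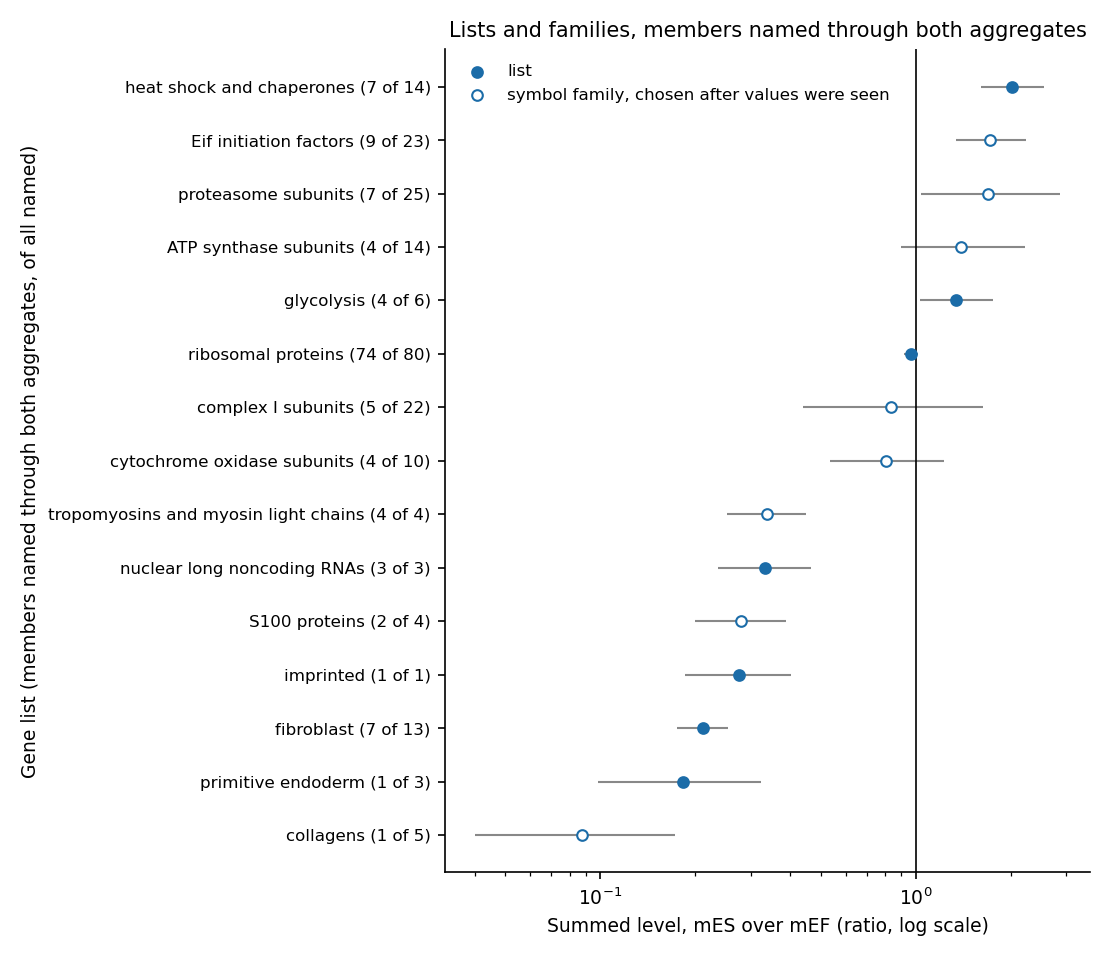
Summed level in mES over that in mEF (x axis, ratio on a log scale) for gene lists and symbol families (y axis), over the members named through both aggregates, with their number of all named members in parentheses and exact 95% intervals as bars. Filled points are lists, themselves chosen with earlier results of these data known. Open points are families chosen after the values here were seen. The ratio runs from 0.0877 for the 1 collagen to 2.02 for the 7 chaperones, and ribosomal proteins lie at 0.968.

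Whole families were counted after these values were seen, and taken by symbol so that no member was picked. All 13 named hnRNP genes were named through mES only, so no sum is given for them. Of 23 named Eif genes, 9 were named through both aggregates, and their summed ratio was 1.72 (1.34 to 2.23). Of the 5 of these that were compared, 3 were past the limit toward mES and 0 toward mEF, against 10.3% and 12.2% of all compared genes named through both. Over all 23 Eif genes the levels within set 2 summed to 191 in mES and 217 in mEF. Proteasome subunits named through both aggregates summed to 1.70 (1.04 to 2.88) over 7 genes. The intervals of ATP synthase, complex I and cytochrome oxidase subunits included 1, with ratios of 1.40, 0.836 and 0.808 over 4, 5 and 4 genes.

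Cell division genes were thinly covered. Of 26 members of a mitosis list 10 could be named, 9 through mES only and 1, Cenpf, through mEF only, so their sum is not read as a result. Top2a, the topoisomerase that untangles chromosomes, had 18 and 11 mES positions against 2 and 1. Its ratio was 5.09 (1.58 to 26.1), from 371 and 27 reads. Cenpf, a kinetochore protein, had 8 and 3 against 1 and 1. Bub1 and Aurka, kinases of the spindle checkpoint and the centrosome, each had 4 and 1 mES positions and 0 in mEF. Of 27 replication genes 4 could be named, 3 through mES only and 1, Rrm2, through mEF only. Mcm3, a helicase subunit, had 6 mES against 1 mEF position, whereas Rrm2, a ribonucleotide reductase subunit, had 5 against 6. In mitosis and replication together only Top2a and Dut had enough positions to be compared.

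Chaperones were measured better. Of 21 list members, 14 could be named, 12 were compared, and 4 passed the limit toward mES and 1 toward mEF, against 18.5% and 16.1% of all compared genes. The list's median log2 ratio was 0.54 and its summed ratio 1.58 (1.31 to 1.91). Over the 7 members named through both aggregates the ratio was 2.02 (1.61 to 2.56), with 3 past the limit toward mES and 0 toward mEF, against 10.3% and 12.2% of all such genes. Hsp90aa1, the inducible form of HSP90, had 81 and 28 mES positions in sets 1 and 2 against 14 and 1 in mEF. Its ratio was 3.82 (2.22 to 7.06). Its constitutive paralog Hsp90ab1 had 86 and 19 against 22 and 10, a ratio of 1.73 (1.15 to 2.65) that turned in set 2, at 79.0 against 90.4. Hspa8, the constitutive HSP70, had 60 and 14 against 13 and 2, a ratio of 2.60 (1.48 to 4.87). The member on the mEF side was Hspa5, the chaperone of the endoplasmic reticulum, with 8 and 0 mES against 16 and 6 mEF positions.

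Ribosomal protein genes held a large share of the positions on named genes and differed little between the aggregates. Of 86 annotated genes, paralogs such as Rpl7l1 and Rps27l included, 80 could be named, all 80 were detected in mES, and they held 32.7% of all mES positions on named genes. The mES positions per gene ran from 7 to 124 with a median of 55. Of 79 compared, 3 (Rpl7l1 and Rpl6 among them) passed the limit toward mES and 1 (Rps27l) toward mEF, against 18.5% and 16.1% of all compared genes. Their ratios had a median of 1.01 with quartiles of 0.829 and 1.17. Rpl7l1, at 3.86, is a paralog and had the highest mapping score in only 45.5% of its mES reads. The summed ratio was 0.979 (0.931 to 1.03), and 0.968 (0.920 to 1.02) over the 74 genes named through both aggregates. Ribosomal protein genes have many processed pseudogenes, so their reads can be split between places.

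The named gene with most mES positions was Eef1a1, the elongation factor that delivers tRNA, with 161 and 32 positions and a level of 141. Only 50.4% of its mES reads had the highest mapping score, and with such reads alone its level was 80.8, so its first place depends on reads that also align elsewhere. In mEF it had 99 and 14 positions, a level of 157. Next were Ptma with 136 and 20 mES positions, Rpl41 with 103 and 21, Eif4a1, Set with 95 and 17, Hsp90aa1, Hsp90ab1 and Gapdh with 82 and 15. Set, a histone chaperone, was 3.10-fold (1.90 to 5.34) higher in mES, and Ptma, the nuclear protein prothymosin alpha, 1.61-fold (1.17 to 2.25), although in set 2 Ptma was at 83.2 in mES and 108 in mEF. Ncl and the ribosomal genes Rps24, Rpl23, Rplp1, Rpl13a and Rps20 were also among the 15 leading genes, which together held 11.99% of mES positions on named genes. The median level over all 1048 named genes with a mES position was 4.39.

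Of 18 glycolysis genes 6 could be named, and 0 of the 6 compared were past the limit in either direction, against 18.5% and 16.1% of all compared genes, too few genes to tell from that background. Gapdh, at a ratio of 1.65 (1.09 to 2.55) by positions, had 2207 mES against 346 mEF reads, or 4.55-fold. Pkm stood at 1.65 (0.889 to 3.27) and Pgk1 at 0.688 (0.315 to 1.54).

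Fibroblast markers were present in the mES aggregate at a lower level than in mEF. Of 34 annotated list members 13 could be named, and 12 of the 13 had a mES position. The list summed to a level of 196 in mES and 1199 in mEF, so that mEF was 6.11-fold higher (5.32 to 7.04). All 11 compared members were over 2-fold higher in mEF, against 16.1% of all compared genes. Of the 13, 7 were named through both aggregates, 5 through mEF only and 1 through mES only. All 7 named through both were past the limit toward mEF, against 12.2% of such genes, and their mES level summed to 0.211 times (0.175 to 0.255) that in mEF. Within set 1 the summed levels were 208 and 1205, and within set 2 they were 141 and 1166. Collagen Col1a1 had 16 and 0 mES positions against 120 and 22 in mEF, and mEF was 16.9-fold (10.0 to 30.3) higher. In reads this was 153 against 3886. Thbs1, a matrix glycoprotein, was the most frequent list member in mES, with 51 and 7 positions against 148 and 32. S100a6 followed with 45 and 7, and Acta2, the smooth muscle actin, with 33 and 5. Ptn, a secreted growth factor, had 0 mES positions against 15 and 4 in mEF. With 3 counts in place of 0, Ptn was 12.04-fold higher in mEF, and the exact interval starts at 8.87. Whether the fibroblast transcripts in the mES aggregate came from mES cells or were carried over from fibroblasts in the same libraries was not tested.

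Besides this list, the proteoglycan Bgn had 5 and 1 mES against 38 and 7 mEF positions, mEF being 14.3-fold (6.06 to 40.9) higher. Tpm2, a tropomyosin, had 4 and 0 against 19 and 3. The imprinted long noncoding RNA Meg3 had 36 and 7 against 69 and 13 and was 3.62-fold (2.48 to 5.37) higher in mEF. The noncoding RNAs Gas5 and Snhg1 had 11 and 5 mES positions against 7 and 4.

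Markers of other cell states gave little. Of 14 primitive endoderm members 3 could be named, with 20 mES and 56 mEF positions, and 17 of the 20 were at Sparc, which the fibroblast list also holds. For primed pluripotency, early germ layers, 2-cell-like cells, LIF and STAT3 signaling and immediate early genes, 0 members could be named, so nothing is said of their levels. Of 67 replication-dependent histone genes, 1 could be named, with 1 mES position. These genes rarely have introns and their transcripts lack poly(A) tails.

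In the mES aggregate, 598 named genes had at least 5 positions and 332 at least 10, compared with 316 and 183 in mEF. When the mES positions were thinned at random to the 24511 nuclear positions of mEF, 335 and 174 genes remained. Of the 332 genes with at least 10 mES positions, 11 had no mEF position, all named through mES only. After Jarid2 these were Zfp600, Rex2, Zfp980, Bex1, Bzw2, Srrm1, Wdr43, Odf2, Kpna2 and Tpr, a list read off after the values were seen. Zfp600, Rex2 and Zfp980 are zinc finger genes on chromosome 4 with 16, 15 and 15 mES positions, and 0%, 0% and 18.1% of their mES reads had the highest mapping score, so these reads align to several places and the genes cannot be told apart. Bex1, on the X chromosome, had 14 positions in set 1 and 0 in set 2. With 3 counts in place of 0 in mEF, the ratios of these 10 genes ran from 1.75 to 2.81. These ratios rest on the 3 counts and are not lower limits.

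Library sets 1 and 2 of the mES aggregate ranked genes in a similar but not identical way. Over 169 genes with at least 20 mES positions, the correlation of log2 levels was r = 0.53 across genes, which are not independent replicates. Of these genes, 39 (23.1%) were over 2-fold higher in set 1 and 9 (5.33%) in set 2. The minimum of 20 was met mainly through set 1, which held 11264 of the 13668 mES positions on named genes. This favors genes higher in set 1, so the larger share toward set 1 is not read as a result. The genes most shifted to set 1 were Eif1 with 49 and 1 positions, Fth1 with 42 and 1, Myl6 with 39 and 1, Mif with 34 and 1 and Trim28 with 31 and 1. Their levels were 6.62 to 10.5 times those in set 2. On the other side, Ddx3x had 12 and 8 positions, Top2a 18 and 11, Hspd1 15 and 9, Pabpc1 43 and 24 and Nop58 13 and 7. Their set 2 levels were 2.52 to 3.12 times those in set 1. Pabpc1, the poly(A)-binding protein, was thus at 99.8 in set 2 against 38.2 in set 1. Jarid2, Klf5 and Mkrn1 were among the 39 genes higher in set 1, and Syncrip and Eif2s2 among the 9 higher in set 2. Ribosomal protein genes gave 16 of the 39 and 78 of the 169, near the 23.1% of all genes.

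**Figure D4:**
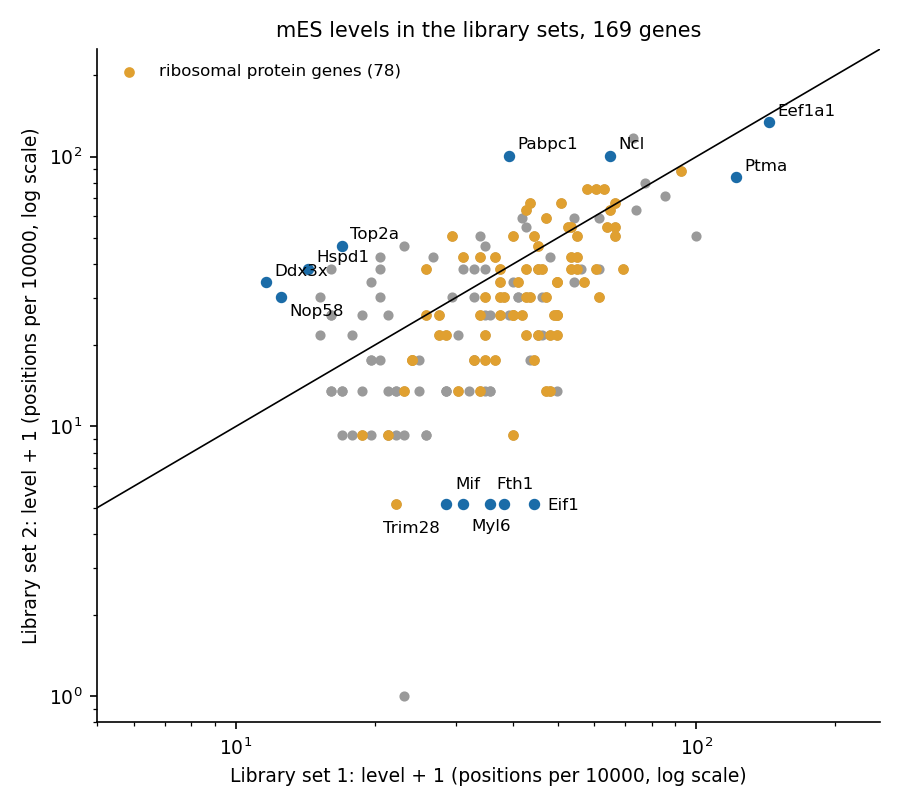
Level + 1 of the 169 genes with at least 20 mES positions in library set 2 (y axis) against set 1 (x axis), in positions per 10000 positions on the named genes of that set, both axes on a log scale. The line marks equal levels; the 5 genes with the largest ratio in each direction and Eef1a1, Ptma and Ncl are blue and labeled, orange marks the 78 ribosomal protein genes, and 1 gene at the bottom has no set 2 position.

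The sets also differed in where reads fell along transcripts. Over the named genes, 78.1% of mES positions (77.4 to 78.8) lay within 500 nt upstream of an annotated 3′ end, with a median distance of 166 nt. This share was 80.7% in set 1 and 66.2% in set 2. In the mEF aggregate it was 77.9% and 79.7%, so the lower share was seen in set 2 of mES. Top2a, higher in that set, had 10 of 29 positions within 500 nt and Rif1 had 7 of 18. The part of this shift in the differences between sets was not tested. On the antisense strand of the named exons lay 1.31% of mES positions (mEF, 0.923%), and of the positions in the gene bodies 93.8% were in exons (mEF, 97.4%).

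**Figure D5:**
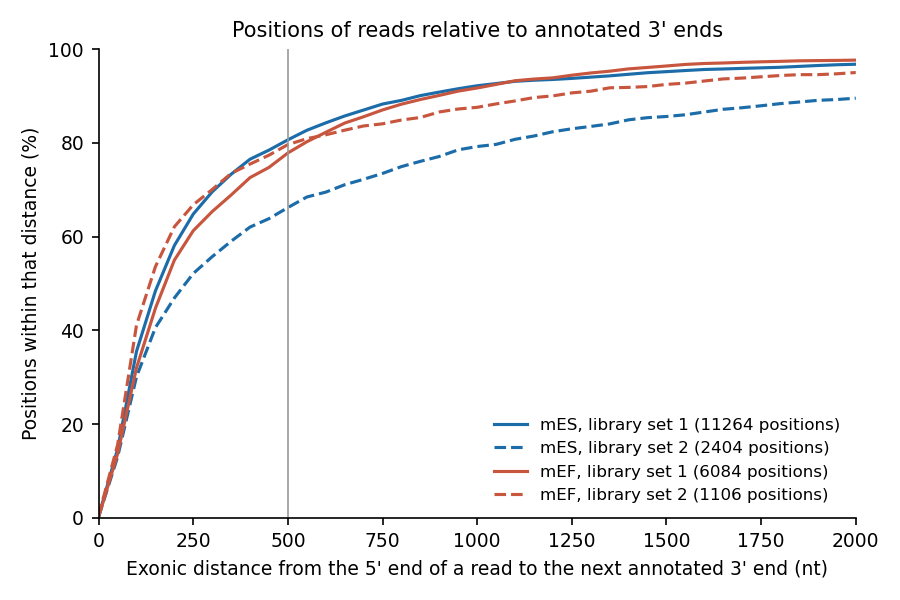
Share of positions (y axis, %) within a given exonic distance of the next annotated 3′ end (x axis, nt) for the named genes, by aggregate and library set. At the gray line of 500 nt, set 2 of mES stands at 66.2% and the other 3 curves between 77.9% and 80.7%.

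On the mitochondrial chromosome, whose annotation does not depend on the build, levels are per 10000 of all positions of the aggregate. The ribosomal RNA mt-Rnr2 had 147 mES positions in set 1 and 549 in set 2, and mt-Rnr1 had 36 and 320. In each set their mES levels were above the mEF levels, at 35.7 against 29.9 and 392 against 293 for mt-Rnr2. The messenger RNAs with at least 20 mES positions had ratios below 1 over the whole aggregate. The oxidase subunit mt-Co1 had 119 and 18 mES positions against 81 and 5, a ratio of 0.743 (0.564 to 0.985). mt-Co3 stood at 0.506 (0.362 to 0.706), mt-Atp6 at 0.467 (0.293 to 0.742) and mt-Nd4 at 0.431 (0.237 to 0.781). Within set 2 the order turned for mt-Co1, at 12.8 in mES and 8.83 in mEF, and the levels of mt-Atp6 were 3.56 and 3.53.

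Many dense places in the mES aggregate carry no gene name here. Of 263 loci with at least 20 mES positions, 143 overlapped exons of a named gene and 120 did not. The densest was chr17:39983257-39985742 on the plus strand, the region left out of the totals, with 330 and 529 mES positions. Next was chr1:24619371-24623017 on the minus strand with 268 and 28 positions, of whose mES reads 0.340% had the highest mapping score. The locus chr5:143664830-143666257 on the minus strand had 235 and 45 mES positions. A locus at chr16:57391273-57391792 on the minus strand had 16 mES positions in set 1, 48 in set 2 and 10 mEF positions in all. By chromosome, the share of positions outside the mitochondrial chromosome was higher relative to mEF on chromosome 13, with 3.52% in mES against 2.86% (ratio 1.23, 1.13 to 1.34), and on chromosome 4, with 6.62% against 5.84% (ratio 1.13, 1.07 to 1.21). Both ratios were above 1 within each set, at 1.24 and 1.19 for chromosome 13 and 1.12 and 1.17 for chromosome 4. The set 2 interval of chromosome 13, 0.9993 to 1.41, includes 1. Over both sets chromosome 8 was also higher (ratio 1.11, 1.03 to 1.19), but in set 2 its ratio was 1.02 (0.869 to 1.21). Chromosomes 19, X, 1 and 5 were lower over both sets, at 0.883, 0.896, 0.929 and 0.935, with intervals below 1. In set 2 they stood at 0.987, 1.02, 1.05 and 0.940, all with intervals that include 1, so X and 1 turned there. For chromosome 5 the set 1 interval, 0.879 to 1.005, also includes 1.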

How the data were processed

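Per the labels, reads of 6 libraries were aligned with TopHat to mm9. The authors grouped barcodes by cell type and deposited 1 alignment list per type, in which each record has coordinates, a read name, the strand and the score set by the aligner. This deposited score takes few values, and its highest was read as a unique placement. The version of TopHat and the barcode of each read are not given in the sources used here. The deposited positions are whole numbers with no normalization.

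The members and gene lists were chosen with earlier results of these data known. The 5′ end was the end coordinate for minus-strand records and the start plus 1 for the others. Reads were split by run, and positions were counted once per library set and summed.

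Gapped alignments (gap of at least 50 nt) were matched to GENCODE M21 introns of the same chromosome, strand and length. Lengths borne by 1 intron were placed first, and others where the order between named neighbors left 1 candidate. Assignments more than 60 nt from the median spacing of 5 neighbors were dropped. No coordinate was carried between builds beyond the gene itself, whose exons were laid out from its own junction with 20 nt of padding. Mitochondrial genes were read directly, since the mitochondrial sequence is numbered alike.

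Levels are positions per 10000 on named genes. Ratios used genes with at least 20 positions, a limit of 2-fold and 3 counts in place of 0. No ratio is given where both aggregates are at or under 3. With 1 pool per cell type there was no test and no p-value. The correlation used a pseudocount of 1.

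Genes named in the text are the markers, list members with at least 5 positions and the 15 with most mES positions. Added to these are the 15 with the largest ratio toward mES, 5 toward mEF, and 5 in each direction between library sets. The 15 toward mES were taken among genes with mES above mEF in set 1 and not below it in set 2. Some genes in the text, among them Lmna, Eif4g1, Srsf3 and Syncrip, fall outside this rule and were taken up with their values known. The families, the genes without a mEF position and the restriction to genes named through both aggregates were added after values were seen. Gene naming and ratios were checked on simulated junctions and counts. Computations used Python 3.11.15, pandas 2.3.3, numpy 2.4.6 and scipy 1.17.1. The deposited barcode list was not used. Values of some genes that meet the rule are not reported here.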

Additional observations from a re-analysis of the deposited data

How the results depend on the processing

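The counts of genes past the limit depended on the minimum, the unit and the limit itself. The 46 genes higher in mES became 398 with reads in place of positions (944 genes then passing the minimum), 116 with a minimum of 10, 13 with 50, 205 without one, 18 at 4-fold and 4 in set 2 alone, where only 24 genes were compared. The 40 genes higher in mEF became 206 with reads, 15 with a minimum of 50, 99 without one, 17 at 4-fold, 6 in set 2 alone and 23 among genes with at least 2 gapped alignments. Among the 156 genes named through both aggregates, a restriction added after seeing the data, 16 and 19 were past the limit. Of the 46 and 40 genes, 39 and 36 were also past the limit with reads. The numbers stayed within 1.5 times of the main ones with the highest mapping score only, gene bodies, strand ignored, set 1 alone and the other scalings. Scaling to all nuclear positions, added after seeing the data, moved the median log2 ratio of the compared genes from 0.10 to -0.08 and gave 38 and 43 genes. The share of mES reads on named exons, 37.7%, was 25.9% for positions. The 598 genes with at least 5 positions were 335 after thinning. The share of positions near 3′ ends, 78.1%, was 81.7% for reads. The log2 summed ratio of stem cell enriched factors, 2.10, was 1.20 in set 2, with 3 counts in place of 0 mEF positions. That of ribosomal proteins, -0.03, was 0.042 for reads and -0.15 in set 2, and that of the fibroblast list, -2.61, was -3.04 in set 2. Of the lists and the few chosen genes past the 2-fold limit that were rerun, 0 changed direction where a ratio was given. The reruns did not rename genes. The pluripotency, stem cell enriched and chromatin lists were named through mES only, as were 9 of the 10 mitosis genes. Their unchanged direction was thus largely set by the naming and is not read as a check. Jarid2, Klf5, Trim28, Lmnb1 and Tdh had too few positions for a ratio in set 2 alone, so they could not turn there. The genes named above as turning in set 2, Eif4a1 among them, were not rerun. The causes were not tested. No paired analysis was possible because the libraries are pooled within each cell type. Depth limits what is seen at low levels: 1 mES position is a level of 0.732, and the 3 counts put in place of 0 are 2.19. Of the 8 markers, 5 have no value because no intron-crossing alignment named them.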
